A study of Homo sapiens with 6 samples.

Results

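The DNA damage checkpoint kinases and their immediate partners were followed as a set of 10 genes, chosen by name. They are the apical kinases ATM, ATR and PRKDC, the ATR partner ATRIP and activator TOPBP1, the mediators MDC1 and CLSPN, the effector kinases CHEK1 and CHEK2, and WEE1. The deposited table of 15598 genes had a row for 9 of them. MDC1, a scaffold that binds phosphorylated histone H2AX, had no row, so only its promoter sequence was examined here. All 9 passed the filter on low counts and were tested among 11831 genes.

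The cells were MHCC97H, an established human line from hepatocellular carcinoma with a high capacity for metastasis. The comparison was of 3 libraries from cells that expressed a hairpin RNA against HNRNPC (shHNRNPC) with 3 from cells that expressed a control hairpin (shcontrol), and no other treatment or time is given in the labels. HNRNPC encodes a protein of the nucleus that packages newly made RNA at runs of uridine. All 6 libraries came from 1 line, and the labels tell apart 1 knockdown construct. They do not say whether the 3 libraries of a group came from separate cultures, so the p-values measure the spread between libraries, which may be technical.

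In this pathway ATM responds mainly to broken DNA ends and ATR to single-stranded DNA at stalled replication forks, while DNA-PKcs, the product of PRKDC, acts in end joining. ATM activates CHK2, the product of CHEK2. ATR, held at the DNA by ATRIP and switched on by TOPBP1, activates CHK1 with the help of claspin, the product of CLSPN. CHK1 and CHK2 restrain the CDC25 phosphatases, and WEE1 places the inhibitory phosphate on CDK1 that those phosphatases remove. In tumour cells with a high load of replication stress the ATR, CHK1 and WEE1 arm is known as a drug target.

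Total counts were 15563077 to 18328475 in the shcontrol libraries and 16692497 to 17889820 in the shHNRNPC libraries. HNRNPC fell in every shHNRNPC library, from 852 ± 4.76 to 62.3 ± 3.79 CPM (read counts scaled to the size of each library; SD, n = 3 in each group), a log2 fold change of -3.77 (SE 0.030, edgeR adjusted p = 5.04e-55). Of 12 hepatocellular and epithelial markers, KRT8 and KRT18 were abundant, whereas ALB, AFP and APOA1 had at most 6 counts in any library. The summed level of the 10 of these markers with a row was 1400 to 1410 CPM in shcontrol and 1550 to 1570 CPM in shHNRNPC, and its part in the results was not tested. Of the leukocyte, fibroblast and endothelial markers with a row, the highest was COL1A1 at up to 16.5 CPM, and PECAM1, CD3E, DCN and LUM had at most 2 counts. By edgeR's quasi-likelihood test at an adjusted p of 0.05, 61.1% of all tested genes were called, 29.8% higher and 31.3% lower in shHNRNPC. Each count of members has to be read against these shares.

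Of the 9 checkpoint genes measured, 5 fell, 2 rose and 2 did not pass the test. The 3 apical kinases fell with TOPBP1 and CLSPN, whereas CHEK2 and WEE1 rose, and ATRIP and CHEK1 were not called. The median log2 fold change of the 9 genes was -0.39, beside -0.0041 over all genes tested. With transcript length and GC content corrected for, as described below, these medians were -0.21 and -0.050, and CHEK1 was also called higher. The 3 values of each group did not overlap for the 7 called genes, which was so for 64.0% of all tested genes. In bulk RNA of this kind, fewer cells that express a gene and less of its RNA per cell cannot be told apart.

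Promoter sequences are shown for CLSPN and TOPBP1, which fell, and CHEK2, which rose, so that the sequence at the start of genes that moved in opposite directions can be compared. These 3 were chosen after their values were seen. The set of RefSeq promoters used here, on GRCh38.p14, held an entry for 8 of the 10 genes and none for PRKDC and WEE1. A gene with several entries counts as holding a motif where any entry does. Each sequence runs 5′ to 3′ on the gene's strand, from 250 bases before the start to 30 after it. Capitals mark a match on either strand to an E2F core (TTTGGCGC, TTTCGCGC, TTTCCCGC or TTTGCCGC), a CCAAT box (CCAAT) or a cell cycle homology region (TTTGAA), and no capitals of different motifs overlap.
TOPBP1, chr3:133661912-133662191, minus strand: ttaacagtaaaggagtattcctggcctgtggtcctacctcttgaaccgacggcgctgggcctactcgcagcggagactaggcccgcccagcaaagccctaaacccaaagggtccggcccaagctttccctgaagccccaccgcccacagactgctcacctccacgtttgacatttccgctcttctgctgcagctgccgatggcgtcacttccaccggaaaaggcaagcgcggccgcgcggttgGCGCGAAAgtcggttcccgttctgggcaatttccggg
CLSPN, chr1:35769949-35770228, minus strand: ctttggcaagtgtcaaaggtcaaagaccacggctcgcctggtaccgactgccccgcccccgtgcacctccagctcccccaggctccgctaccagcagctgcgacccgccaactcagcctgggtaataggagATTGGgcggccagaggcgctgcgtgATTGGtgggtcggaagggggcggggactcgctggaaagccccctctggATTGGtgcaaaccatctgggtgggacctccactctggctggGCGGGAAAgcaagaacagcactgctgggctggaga
CHEK2, chr22:28741791-28742070, minus strand: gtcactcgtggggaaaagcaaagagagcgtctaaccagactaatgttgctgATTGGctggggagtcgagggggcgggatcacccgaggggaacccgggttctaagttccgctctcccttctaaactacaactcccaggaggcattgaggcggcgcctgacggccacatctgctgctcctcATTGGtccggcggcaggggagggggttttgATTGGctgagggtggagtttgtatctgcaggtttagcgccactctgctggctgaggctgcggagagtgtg

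An E2F core was found in 2 of the 8 genes with an entry, TOPBP1 and CLSPN, and in 3.1% of all 35114 promoter windows of the same length. With a window that stopped at the start, at 250 bases, both matches were cut and no member had one, so the longer window was taken after the first result was seen. CLSPN, which fell, and CHEK2, which rose, each had 3 CCAAT matches. CCAAT occurred in 6 of the 8 genes and in 33.7% of all windows. The homology region occurred in ATM and MDC1 and in 14.5% of all windows, and the ATR window held none of these motifs. These shares are per single window, whereas ATM, ATRIP and CHEK1 had several windows each, so the gene counts and the shares are not alike. A match is a description of the letters and was not tested as a binding site.

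**Figure D1:**
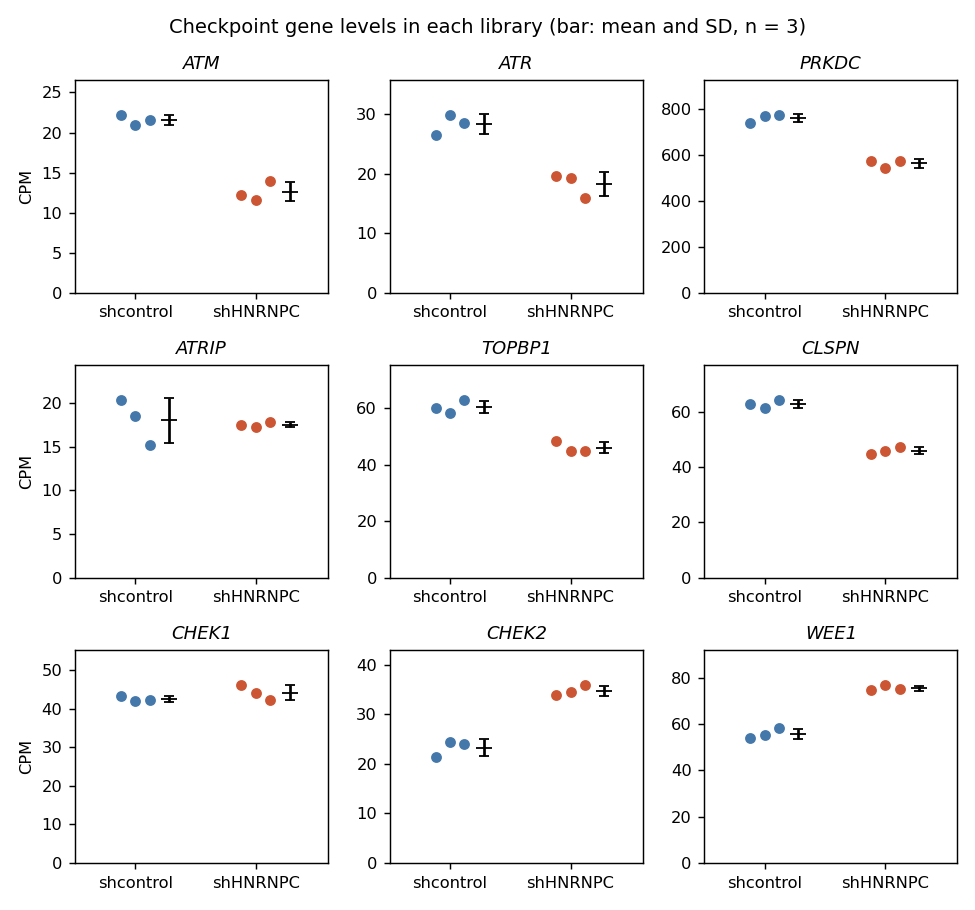
Level of each checkpoint gene in CPM (vertical axis, from 0, 1 scale per gene) in the 3 shcontrol and 3 shHNRNPC libraries (points), with the mean and SD of each group (bars). ATM, ATR, PRKDC, TOPBP1 and CLSPN are lower in every shHNRNPC library, CHEK2 and WEE1 are higher in every one, and ATRIP and CHEK1 overlap.

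The apical kinases were all lower. ATM, the kinase that answers DNA breaks, had the largest change of the set as counted, at 22.2, 21.0 and 21.6 CPM in the shcontrol libraries and 12.2, 11.6 and 13.97 CPM in the shHNRNPC libraries. Every shHNRNPC value lay below every shcontrol value. The log2 fold change was -0.77 (SE 0.086, edgeR adjusted p = 1.05e-10), so that 58.5% of the control level remained, at percentile 4.41 of the fold changes of all tested genes. After the GC and length correction it was -0.35, smaller in size than the changes of WEE1, CHEK2 and CLSPN. The deposited table places ATM on chromosome 11, 108223116 to 108369102, plus strand.

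ATR, the kinase of stalled forks, stood at 26.5, 29.8 and 28.5 CPM in shcontrol and 19.6, 19.2 and 15.9 CPM in shHNRNPC. The knockdown library at 15.9 CPM was lower than the other 2, and the groups did not overlap. The log2 fold change was -0.63 (SE 0.078, edgeR adjusted p = 1.55e-09), or 64.5% of the shcontrol level. ATR lies on chromosome 3, 142449237 to 142578826, minus strand, and a pseudogene on the opposite strand shares 16.4% of its exonic bases.

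PRKDC, which encodes the catalytic subunit of DNA-PK, was by far the most counted of the 9 genes, with 12185 to 14402 reads in shcontrol and 9439 to 10202 in shHNRNPC. It measured 742, 771 and 775 CPM in shcontrol and 574, 543 and 577 CPM in shHNRNPC. The groups were well apart, and the depth gave PRKDC the smallest error of the set. The log2 fold change was -0.43 (SE 0.023, edgeR adjusted p = 3.75e-21), or 74.1% of the shcontrol level. Only ATM and ATR among the members were at least 1.5-fold lower as fitted, which held for 9.12% of all tested genes. None of the members was at least 1.5-fold higher, against 4.90% of all. After the GC and length correction 0 members were at least 1.5-fold lower, with ATM at 1.28-fold and ATR at 1.22-fold, and 4.87% of all tested genes were. WEE1 was then 1.54-fold higher, and 4.58% of all tested genes were at least 1.5-fold higher.

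ATM, ATR and DNA-PKcs belong to the family of PI3K-related kinases (PIKKs), whose other members here are MTOR, SMG1 and TRRAP. All 6 PIKK genes were called lower, beside 31.3% of all tested genes. MTOR, the growth kinase, had a log2 fold change of -0.11 (adjusted p = 0.00261). SMG1, the kinase of nonsense-mediated decay, fell by 0.43 on the log2 scale, from 117 ± 3.26 to 87.1 ± 2.76 CPM, and had a log2 fold change of -0.17 after the GC and length correction. TRRAP, a scaffold of histone acetyltransferases without kinase activity, fell from 200 ± 1.42 to 142 ± 3.95 CPM. All 6 have long transcripts, and among tested genes of the longest of 4 length classes 50.5% were lower. After the GC and length correction all 6 were still called lower, beside 34.2% of all tested genes. On the log2 scale MTOR was then at -0.11, and TRRAP was at -0.47, compared with -0.49 as counted.

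Of the partners of ATR, TOPBP1 was called lower and ATRIP was not called. ATRIP, which recruits ATR to coated single-stranded DNA, measured 20.3, 18.5 and 15.2 CPM in shcontrol and 17.5, 17.2 and 17.8 CPM in shHNRNPC. The shHNRNPC values lay within the range of the shcontrol values. The log2 fold change was -0.035 (95% interval -0.21 to 0.14, edgeR adjusted p = 0.749). The interval allows a level between 0.862 and 1.10 of that in shcontrol. As counted, the fall of ATR lay outside this interval, but after the GC and length correction ATR, at -0.29, lay within that of ATRIP (-0.15, 95% interval -0.32 to 0.026). ATRIP is uncertain as a count, because 27.9% of its exonic bases in GENCODE 29 are shared with TREX1 on the same strand, a gene without a row in the table.

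TOPBP1, the scaffold that activates ATR, measured 59.9, 58.3 and 62.7 CPM in shcontrol and 48.3, 44.8 and 44.7 CPM in shHNRNPC. Its groups did not overlap, and the log2 fold change was -0.39 (SE 0.051, edgeR adjusted p = 4.27e-09). TOPBP1 lies on chromosome 3, 133600271 to 133662380, minus strand.

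CLSPN, the adaptor through which ATR reaches CHK1, measured 62.8, 61.4 and 64.1 CPM in shcontrol and 44.8, 45.9 and 47.2 CPM in shHNRNPC. The knockdown libraries were all lower, with a log2 fold change of -0.45 (SE 0.049, edgeR adjusted p = 5.52e-11). CLSPN lies on chromosome 1, 35736405 to 35769928, minus strand. An antisense gene shares 5.17% of its exonic bases, and whether the counting used strand is not known from the sources used here.

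Of the effector kinases, CHEK2 was called higher and CHEK1 was not called. CHEK1, which encodes the kinase below ATR, measured 43.4, 42.0 and 42.3 CPM in shcontrol and 46.0, 44.1 and 42.1 CPM in shHNRNPC. The groups overlapped, and the log2 fold change was 0.050 (95% interval -0.060 to 0.16, edgeR adjusted p = 0.443). The interval corresponds to 0.959 to 1.12 of the shcontrol level, and no change of the size seen in CLSPN lay within it. CHEK1 was called higher after the correction for GC content and length that is described below.

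CHEK2, which encodes the kinase below ATM, rose, from 21.3, 24.5 and 24.04 CPM in shcontrol to 33.9, 34.6 and 35.9 CPM in shHNRNPC. Every knockdown library was above every control library. The log2 fold change was 0.58 (SE 0.067, edgeR adjusted p = 3.30e-10), or 149% of the shcontrol level, at percentile 94.3 of all tested genes. CHEK2 lies on chromosome 22, 28687744 to 28741844, minus strand. Its count is uncertain to some degree, since GENCODE 29 lists 4 CHEK2 pseudogenes by name, and HSCB on the opposite strand shares 6.70% of its exonic bases.

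WEE1, the kinase that holds CDK1 inactive, measured 53.9, 55.2 and 58.1 CPM in shcontrol and 74.8, 76.7 and 75.04 CPM in shHNRNPC. The groups were clearly apart, with a log2 fold change of 0.44 (SE 0.045, edgeR adjusted p = 1.66e-11), or 135% of the shcontrol level. WEE1 lies on chromosome 11, 9574687 to 9589984, plus strand. For each of the 9 genes the authors' deposited table gives a fold change of the same sign, from -0.77 for ATM to 0.58 for CHEK2 on the log2 scale.

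Since every pair of partners is counted within the same library, ratios of their raw counts do not depend on how libraries are scaled, although they do depend on a correction for GC content and length. The ratio of CHEK2 to ATM was 0.963, 1.17 and 1.11 in shcontrol and 2.78, 2.97 and 2.57 in shHNRNPC, which is 2.57-fold higher and the largest shift of the 5 ratios computed. The ratio of ATRIP to ATR was 0.765, 0.622 and 0.532 in shcontrol and 0.891, 0.896 and 1.12 in shHNRNPC. The ratio of CLSPN to CHEK1 was 1.45, 1.46 and 1.52 in shcontrol and 0.974, 1.04 and 1.12 in shHNRNPC. In all 3 cases the knockdown libraries lay outside the range of the controls.

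The ratio of CHEK1 to WEE1 was 0.764 ± 0.039 in shcontrol and 0.584 ± 0.028 in shHNRNPC, and that of TOPBP1 to ATR was 2.14 ± 0.16 and 2.54 ± 0.25. None of these 5 ratios of raw counts overlapped between groups. They are built mostly from called genes, and 64.0% of all single tested genes did not overlap either, so this count is no result about the partners. The exact 2-sided permutation test gave p = 0.10 for each, also after Benjamini-Hochberg adjustment over the 5, which is the smallest value that 3 against 3 libraries can give. With each library's counts corrected for GC content and length, ATRIP to ATR and TOPBP1 to ATR overlapped between groups, and their shifts were 0.148 and 0.0859 on the log2 scale, compared with 0.607 and 0.245 as counted. The shift of CHEK2 to ATM was 0.865 in place of 1.36, that of CLSPN to CHEK1 was -0.615 in place of -0.50, and that of CHEK1 to WEE1 stayed at -0.39, all 3 without overlap.

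Levels between genes were compared per kilobase of the longest coding transcript in GENCODE 29, and which transcripts these cells use was not determined. On this scale PRKDC was the highest in shcontrol, at 56.4 CPM per kilobase, followed by WEE1 at 16.2, CLSPN at 13.2, CHEK2 at 11.8, CHEK1 at 10.2 and TOPBP1 at 9.80. ATRIP at 3.93, ATR at 3.43 and ATM at 1.64 CPM per kilobase were the lowest. The ranges of CHEK1 and TOPBP1 overlapped, as did those of ATRIP and ATR, and the other neighbours were separate. In shHNRNPC CLSPN, at 9.63 CPM per kilobase, stood below CHEK2 at 17.6 and CHEK1 at 10.6, and the other places in the order were kept.

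**Figure D2:**
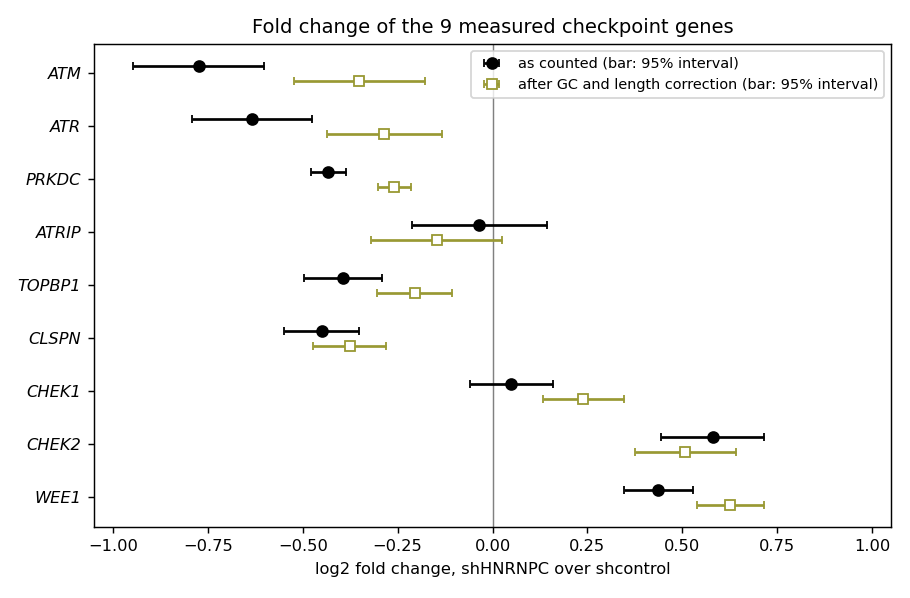
Log2 fold change of shHNRNPC over shcontrol (horizontal axis) for the 9 genes, as counted (filled circles) and after correction for transcript GC content and length (open squares), with 95% intervals. The falls of ATM, ATR, PRKDC and TOPBP1 are smaller after the correction, and CHEK1 moves from 0.050 to 0.24.

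The members that fell have long transcripts. The longest coding transcript is 13147 bases for ATM, 13509 for PRKDC, 8249 for ATR, 6152 for TOPBP1 and 4769 for CLSPN, compared with 1971 for CHEK2 and 3436 for WEE1. Across the 9 genes Spearman's rho between the log2 fold change and this length was -0.867, given as a description of genes counted in the same 6 libraries. For the GC content of the transcript rho was 0.483, and for the span of the gene it was -0.650. GC content ran from 39.1% for ATM to 58.7% for ATRIP, with WEE1 at 40.8% and CHEK1 at 41.5%. Tested genes were divided into 4 classes of nearly equal size by this length. In the shortest class (up to 2223 bases), which holds CHEK2, the median log2 fold change was 0.11, with 14.3% of genes lower and 42.1% higher. In the next class, which holds WEE1, 25.0% were lower and 34.6% higher. The class from 3500 to 5286 bases holds ATRIP, CHEK1 and CLSPN, and there 35.6% were lower and 25.6% higher. ATM, ATR, PRKDC and TOPBP1 are in the longest class (from 5287 bases), whose median was -0.20, with 50.5% lower and 16.7% higher.

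A per-library correction for transcript GC content and length reduced the falls. After it ATM had a log2 fold change of -0.35 (SE 0.086, edgeR adjusted p = 3.87e-04), ATR of -0.29 (SE 0.076, adjusted p = 9.69e-04), PRKDC of -0.26 and TOPBP1 of -0.21. CLSPN was less affected, at -0.38, and CHEK2 was at 0.51 and WEE1 at 0.63. CHEK1 was then called higher (0.24, SE 0.054, adjusted p = 1.08e-04), and ATRIP stayed uncalled (-0.15, adjusted p = 0.143). The correction thus left 5 members lower and made 3 higher, where 34.2% of all tested genes were lower and 22.8% higher. Not every long transcript shifted. MTOR (8677 bases, 52.2% GC) stayed at -0.11, and TRRAP (12677 bases, 52.7% GC) went from -0.49 to -0.47. SMG1 (16115 bases, 43.2% GC) went from -0.43 to -0.17, and the shorter WEE1 (3436 bases, 40.8% GC) from 0.44 to 0.63. The correction takes GC content and length together, and the part of each was not tested. What gives rise to the relation with length was not tested.

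**Figure D3:**
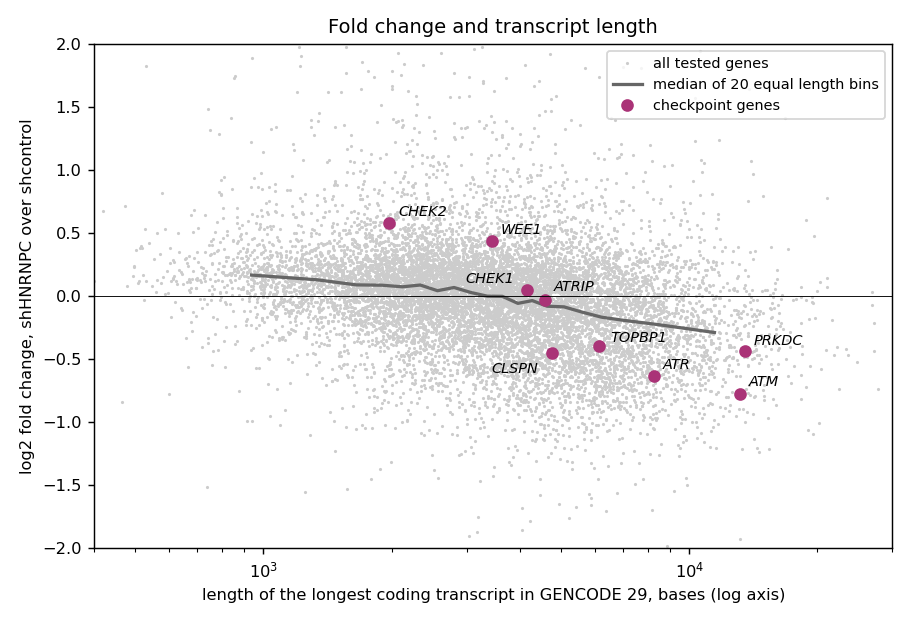
Log2 fold change (vertical axis) against the length of the longest coding transcript in bases (log axis) for all tested genes (grey points), with the median in 20 bins of equal gene number (line) and the 9 checkpoint genes named. ATR, TOPBP1 and CLSPN lie below the line and CHEK2 and WEE1 above it, ATM and PRKDC lie beyond its right end, and 47 genes outside the axes are not drawn.

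Other genes of the pathway were taken from 4 lists, with 70 genes in all, each of which was tested. Of these 37 fell, 18 rose and 15 did not pass, where 31.3% of all tested genes were lower and 29.8% higher. In either direction 78.6% of the 70 were called, beside 61.1% of all tested genes. Their median log2 fold change was -0.090, beside -0.0041 over all tested genes. The count of each list below has to be read against the same shares. With GC content and length corrected for, the numbers were 32 lower and 15 higher, where 34.2% of all tested genes were lower and 22.8% higher.

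The list of activators, the RAD9A-RAD1-HUS1 clamp, its loaders, RPA, MRN and Ku had 19 genes, of which 8 fell and 7 rose (median -0.083, and 0.041 after the GC and length correction). MRE11, the nuclease of the MRN complex that senses broken ends for ATM, fell from 20.2 ± 1.18 to 8.08 ± 0.17 CPM, which is -1.32 on the log2 scale (SE 0.095, edgeR adjusted p = 1.65e-16). This was a larger fall than that of any checkpoint gene above, and after the correction it was -0.94. RAD50 and NBN, the other MRN subunits, were named after their values were seen. RAD50 fell from 3.32 ± 0.47 to 1.70 ± 0.26 CPM and NBN from 27.1 ± 1.45 to 18.7 ± 0.99 CPM. All 3 MRN subunits were thus lower, beside 31.3% of all tested genes. RAD50 had only 25 to 68 reads in a library, and its log2 fold change was -0.97 (SE 0.22). After the correction it was -0.68 (edgeR adjusted p = 0.00691). On the log2 scale NBN went from -0.53 as counted to -0.18 after the correction (edgeR adjusted p = 0.0282).

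Among the clamp loaders RFC2 fell from 96.9 ± 2.20 to 69.9 ± 2.60 CPM and RFC5 from 64.9 ± 2.05 to 49.5 ± 0.63 CPM. RPA3, the smallest subunit of the protein that coats single-stranded DNA, rose from 38.8 ± 0.43 to 54.6 ± 2.91 CPM. With the GC and length correction the log2 fold change of RFC2 went from -0.47 to -0.69. That of RFC5 went from -0.39 to -0.40 and that of RPA3 from 0.49 to 0.42.

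Of 14 mediators and replisome adaptors 7 fell and 2 rose (median -0.052, and -0.15 after the correction). RIF1, which protects broken ends from resection, fell from 39.0 ± 2.23 to 22.5 ± 2.12 CPM. BRCA1 and its partner BARD1, which form a ubiquitin ligase of homologous recombination, fell from 19.9 ± 0.96 to 13.2 ± 0.54 CPM and from 27.4 ± 0.69 to 18.8 ± 1.70 CPM. The correction made these falls smaller, from -0.80 to -0.32 for RIF1, from -0.59 to -0.35 for BRCA1 and from -0.54 to -0.18 for BARD1 on the log2 scale, and all 3 were still called. ABRAXAS1, a subunit of a BRCA1 complex, rose from 4.22 ± 0.27 to 8.77 ± 0.69 CPM, the largest rise in the 4 lists.

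The 15 targets at the entry to S phase and mitosis were split, with 6 lower and 6 higher (median 0.023, and 0.00096 after the correction). CDC25A, the phosphatase that CHK1 marks for destruction, rose from 88.3 ± 1.98 to 123 ± 9.64 CPM. CDK2, which that phosphatase activates, rose from 99.1 ± 2.96 to 118 ± 2.83 CPM, which was 0.25 on the log2 scale and 0.13 after the correction. PKMYT1, a membrane-bound relative of WEE1, rose from 105 ± 3.96 to 123 ± 3.90 CPM. After the GC and length correction the log2 fold change of PKMYT1 was 0.00096 (adjusted p = 0.985). CDC7, the kinase that fires replication origins, fell from 20.4 ± 0.69 to 11.4 ± 1.06 CPM.

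The list for the assembly of PIKKs and for ending the signal had 22 genes, among them the PIKK genes MTOR, SMG1 and TRRAP already described. Of the 22, 16 fell and 3 rose (median -0.16). After the GC and length correction 12 were lower and 2 higher (median -0.16), beside 34.2% and 22.8% of all tested genes. Besides TRRAP and SMG1, the deubiquitinases USP1 and USP7 fell, USP1 from 61.6 ± 3.53 to 35.0 ± 0.61 CPM and USP7 from 83.7 ± 4.06 to 57.5 ± 1.55 CPM. With the correction the log2 fold change of USP1 went from -0.82 to -0.61 and that of USP7 from -0.54 to -0.47. USP7 is known to stabilise claspin, and USP1 acts on FANCD2 and PCNA.

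CHEK1, CLSPN and WEE1 vary through the cell cycle, so cell cycle lists are given beside them. Of all tested genes 31.3% were lower and 29.8% higher. In the G2 and mitosis list 18 of the 24 tested genes were lower and 2 higher, with a median of -0.54, and ANLN, AURKA and TOP2A had the smallest adjusted p. Their summed level was 3133 to 3163 CPM in shcontrol and 2621 to 2659 CPM in shHNRNPC. Of 29 S phase genes 14 rose and 8 fell, with a median of 0.062, and MCM3, MCM7 and CDT1 had the smallest adjusted p. Their summed level was 4953 to 4999 CPM in shcontrol and 5187 to 5211 CPM in shHNRNPC. With the correction 22 members of the G2 and mitosis list were lower and 0 higher, with a median of -0.34. In the S phase list 13 genes were then higher and 10 lower, with a median of 0.0645. The corrected shares of all tested genes were 34.2% lower and 22.8% higher. The part of cell cycle position in the changes of the checkpoint genes was not tested.

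**Figure D4:**
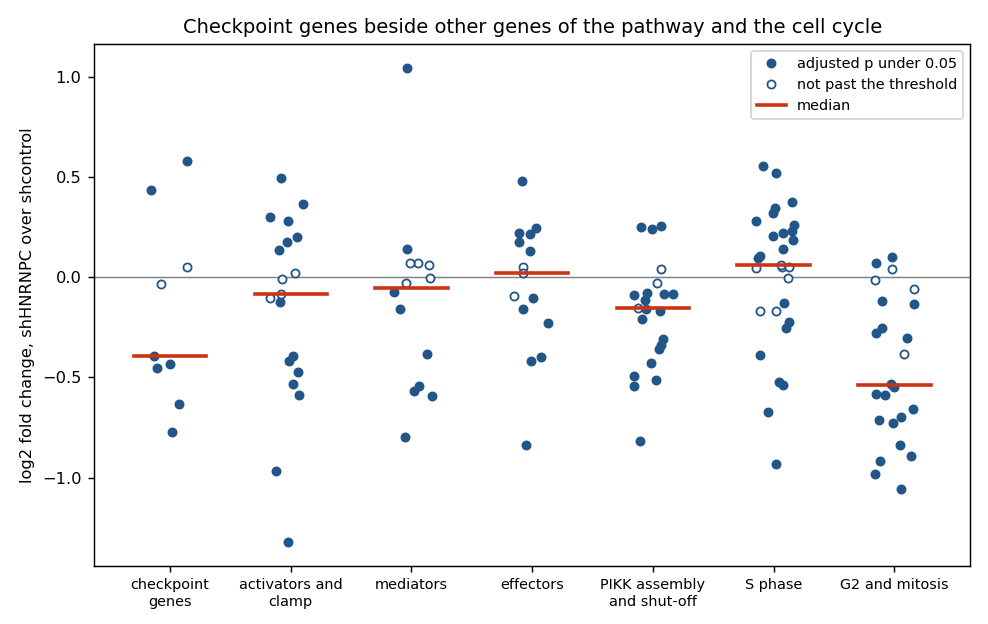
Log2 fold change of shHNRNPC over shcontrol (vertical axis) for the 9 checkpoint genes, the 4 pathway lists and 2 cell cycle lists, each point 1 gene (filled where the adjusted p is under 0.05) and each red line a median. The checkpoint genes have a median of -0.39, the pathway lists lie between -0.16 and 0.023, and the list of G2 and mitosis is at -0.54.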

How the data were processed

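RNA was sequenced in 3 shcontrol and 3 shHNRNPC libraries of MHCC97H cells. STAR, DESeq2 and HTSeq 0.6.0 are listed, without roles, in the submitters' processing notes. Build, annotation and strand setting: not given in the sources used here. Read counts deposited by the authors are whole numbers per gene, not normalised, and the authors' deposited log2 fold changes, p-values and adjusted p-values were used for comparison only. Columns were assigned to groups by the names NC and SI, which carry no replicate number of the titles, and 24 other per-library columns were not used. All 15211 deposited positions fall on the GENCODE 29 (GRCh38) gene with the same name, and that annotation supplied transcript length, GC content and overlaps.

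Counts were filtered with filterByExpr, scaled by TMM and compared by edgeR 4.0.16 (glmQLFit, glmQLFTest) in R 4.3.3, with Benjamini-Hochberg adjustment over all 11831 tested genes and a threshold of 0.05. CPM are TMM-scaled. The GC and length correction used per-library smooth terms from mgcv 1.9.3 as offsets. Libraries of a group differed by more than counting noise (chi-square of 1.56 to 2.50 a gene, against 29.5 to 33.6 for libraries of different groups), so none was taken as a repeat deposit of another. Whether they are separate cultures is not known. The scripts were tested on simulated data. Members and lists were chosen with earlier results of these data known. Genes named from a pathway list are the 4 with the smallest adjusted p (3 for the cell cycle lists), unless stated. MTOR was named as a PIKK and not by this rule. The set of 6 PIKK genes was not among the planned comparisons and was also drawn up with results of these data known.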

Additional observations from a re-analysis of the deposited data

How the results depend on the processing

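The members called lower (5) and higher (2) kept these numbers with RLE, upper quartile or library size scaling, without a filter or with a mean of at least 1 CPM, with DESeq2 and limma with voom, and without any 1 of the 6 libraries. The GC and length correction kept 5 lower and added CHEK1 as higher. Over these settings ATM ranged from -0.856 to -0.351, ATR from -0.687 to -0.285 and PRKDC from -0.473 to -0.258 on the log2 scale, the correction giving the smallest falls. ATRIP, not called in any of 16 settings, changed sign without the shcontrol library NC_3 (0.058), and ranged from -0.151 to 0.058 with 1 library left out. Tested by edgeR against a 1.5-fold change, 608 genes were called in all, 0 members were lower and 0 higher (1 member, ATM, had an unadjusted p under 0.05, and its adjusted p was 0.0742), and the pathway lists had 4 genes lower and 1 higher; the other tools tested against no change. No ratio of partners changed direction without any 1 library. The GC and length correction, added for the ratios after the data were seen, gave log2 shifts of 0.148 for ATRIP to ATR, 0.0859 for TOPBP1 to ATR, -0.615 for CLSPN to CHEK1 and 0.865 for CHEK2 to ATM. The columns share suffixes across groups that the labels tie to no replicate number, and deviations of same-suffix libraries correlated at -0.0501, 0.0122 and -0.0395. A replicate block by suffix, also added later, called 7159 genes instead of 7228 and left 5 members lower and 2 higher. The members had at least 201 counts in every library, and the error was largest for the least counted, ATM, ATR and ATRIP.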
